A study of Sus scrofa with 9 samples.

Results

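The swine leukocyte antigen (SLA) and other MHC antigen presentation probes of a porcine one-colour microarray were followed in pig whole blood before and after oral azide. A probe was a member where the array's gene name began with SLA- or was B2M, TAP1, TAP2 or CD74, or where its description contained SLA-, MHC class, histocompatibility antigen or beta-2-microglobulin. This gave 47 of the 43603 non-control probes: 23 for class I heavy chains, 19 for class II chains, 2 for TAP1, 2 for CD74 and 1 described as beta-2-microglobulin. No probe was named TAP2. Gene names placed 31 of the members, and the description alone placed 16.

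The animals were specific-pathogen-free males of the Clawn miniature breed. They received azide by mouth at 300 µg per kg, and whole blood was taken into PAXgene tubes, which preserve RNA at sampling. Azide is an inhibitor of the mitochondrial enzyme cytochrome c oxidase. The first group of 3 arrays held blood from before feeding, the second group of 3 held blood from 6 h after azide, and the third group of 3 held blood from 24 h after azide. The age was 7 months in some labels and 7 weeks in others. No pig without azide was sampled at 6 h or 24 h, so azide and the time of sampling cannot be told apart. Whether a replicate number stands for 1 pig followed over time, and whether replicates of a group are separate pigs, is not in the labels, so the p-values measure only the spread between these samples. The 3 arrays of a group shared a slide with no other group, and slide and group therefore cannot be told apart.

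Class I molecules consist of a polymorphic heavy chain and beta-2-microglobulin, are found on nearly all nucleated cells, and show peptides from the cell's interior to CD8 T cells. The peptides are cut by the proteasome and carried into the endoplasmic reticulum by the TAP1-TAP2 transporter. Class II molecules pair an alpha with a beta chain, are found mainly on B cells, monocytes and dendritic cells, and show endosomal peptides to CD4 T cells; CD74, the invariant chain, fills their groove during assembly and DM exchanges its remnant for peptide. In pigs SLA-1, SLA-2 and SLA-3 are the classical class I genes and SLA-6 and SLA-7 non-classical ones. Interferon gamma is a known inducer of both classes.

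Several members measure the same or nearly the same letters, so they are not independent readings of separate genes. Of the 47 probes, each of 60 bases, 13 shared a run of at least 20 bases with another member, 9 of them in class I and 4 in class II. The probes shown first are those of the class I heavy chain that read its coding part, because most of the larger class I differences at 6 h came from them. They lie, in the order given, in the first extracellular domain, at its junction with the following domain, at the start of the immunoglobulin-like domain, in that domain of SLA-3 and of SLA-7, and in the cytoplasmic tail up to the stop codon.
SLA-1 A_72_P178486: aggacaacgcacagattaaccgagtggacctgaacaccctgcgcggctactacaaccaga
SLA-1 A_72_P170061: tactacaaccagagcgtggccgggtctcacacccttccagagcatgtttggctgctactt
SLA-1 A_72_P299534: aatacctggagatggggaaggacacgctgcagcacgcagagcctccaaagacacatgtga
SLA-3 A_72_P270324: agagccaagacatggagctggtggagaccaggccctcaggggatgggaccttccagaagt
SLA-7 A_72_P237472: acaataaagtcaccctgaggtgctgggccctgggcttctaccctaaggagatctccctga
SLA-1 A_72_P262732: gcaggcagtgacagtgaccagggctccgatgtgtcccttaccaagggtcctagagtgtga

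Other class I probes overlap each other nearer the end of the transcript, and their shared runs show how closely the genes resemble each other there. The run shared by A_72_P155696, described as SLA-2, and the SLA-3 probes A_72_P361238 and A_72_P407238 has 28 bases and holds AATAAA, the letters of the polyadenylation signal, here in capitals. The 2 SLA-3 probes share 50 bases with each other.
SLA-2 and SLA-3 shared run: gtttgaaagaggaAATAAAtggaaggac
SLA-1 A_72_P119087 and A_72_P023806 shared run: cttaacttgactgccctgagtaatgactt
SLA-1 A_72_P035616 and A_72_P322673 shared run: tgccatgaggagttgaggggat

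For class II, TAP1 and CD74 the coding probes below are shown because, for each gene, they include the probe with the largest difference at 6 h. Capitals mark the 40 bases that the 2 DRB1 probes share.
SLA-DRA A_72_P348363: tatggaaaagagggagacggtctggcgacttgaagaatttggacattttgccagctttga
SLA-DRB1 A_72_P246677: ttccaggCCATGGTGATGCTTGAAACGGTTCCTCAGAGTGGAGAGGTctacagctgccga
SLA-DRB1 A_72_P079096: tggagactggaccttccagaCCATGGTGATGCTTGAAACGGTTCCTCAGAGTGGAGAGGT
TAP1 A_72_P223837: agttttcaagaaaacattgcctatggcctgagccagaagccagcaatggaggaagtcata
CD74 A_72_P395573: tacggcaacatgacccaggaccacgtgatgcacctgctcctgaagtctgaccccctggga

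Levels are log2 processed signals minus the array's own 75th percentile, so a level of 0 is that percentile and a difference of 1 is 2-fold. Differences between times were tested with limma over all 9 arrays, with Benjamini-Hochberg adjustment over the 19783 probes that exceeded background clearly in every array of 1 group or more. Of the members, 37 were tested and all of these were well above background on all 9 arrays. The other 10 were SLA-6 A_72_P260597, SLA-7 A_72_P223217, A_72_P017526, which is described as a class I fragment, and all 7 class II probes placed by their description alone. Of these 10, 7 were well above background on no array and none on more than 4 of the 9, so the count below covers 20 class I and 12 class II probes. The 9 arrays had between 39.9% and 56.6% of spots well above background and no saturated spots, and replicates of a group correlated at 0.933 to 0.985 over probes. Checked against whole blood, each list of red cell, platelet, neutrophil, monocyte, T cell, NK cell and dendritic cell markers had at least 1 tested probe. For red cells this was HBE1 alone.

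No member passed the threshold of 0.05 on the adjusted p in any of the 3 comparisons by limma. On the whole array the number passing was 5 for 6 h against before feeding (0.0253% of those tested), 0 for 24 h against before feeding (0%) and 0 for the later time against 6 h (0%). Over all probes the smallest adjusted p-values in these comparisons were 0.0342, 0.101 and 0.112. What follows therefore gives sizes, standard errors (SE), unadjusted p-values and the order of the arrays, with the share of all tested probes that did the same.

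Class I heavy chain probes were mostly higher at 6 h than before feeding and all lower at 24 h than at 6 h. At 6 h 18 of the 20 tested probes were higher, with a median difference of 0.37 and a range of -0.14 to 0.97. At an unadjusted p under 0.05, 6 of 20 were higher and none lower. Over all tested probes 14.7% were higher and 10.9% lower by that rule. For 5 of 20 the 3 arrays of 6 h all lay above the 3 from before feeding, which held for 16% of all tested probes (10.6% lay apart in the lower direction). Without the third 6 h array the median was 0.23 and 1 of 20 had an unadjusted p under 0.05; without the first array from before feeding 0 of 20 did. Leaving out the third array from before feeding, or the first or the second 24 h array, left 3 of 20. Without the second 6 h array 8 of 20 had such a p, and without any other array 5 or 6 had. The share of all tested probes under that p without an array is not given here. The changes in these counts are therefore not a result about class I.

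At 24 h against before feeding 16 of 20 class I probes were lower, with a median difference of -0.36. By the unadjusted p 4 were lower, against 8.56% of all tested probes lower and 5.32% higher. That count was 0 without the second array from before feeding, without the first or without the third 24 h array, 1 without the third array from before feeding and 2 without the first. Without any other array it was 3 or 4. The groups lay apart in the lower direction for 6 of 20, against 19% lower and 7.5% higher over the array. Between 6 h and 24 h 20 of 20 were lower at the later time, with a median of -0.77 and a range of -0.98 to -0.23. By the unadjusted p 15 of 20 were lower, against 13.6% of all tested probes lower and 7.97% higher, and 14 of 20 lay apart in the lower direction, against 16.5% lower and 10% higher. Without the third 6 h array the median was -0.61 and 6 of 20 had an unadjusted p under 0.05. Without the first 24 h array 4 of 20 did, and without the third 24 h array 7 of 20. Without any other array 10 to 15 of 20 did. As above, the share of all tested probes without an array is not given here. The median over all tested probes was 0.05, -0.01 and -0.09 in the 3 comparisons. Bright probes as a whole were lower at 24 h than at 6 h on this scale. Of tested probes from the 95th to the 99th signal percentile 644 of 792 were lower, with a median of -0.48. At the 99th or over 177 of 198 were, with a median of -0.57. Among the class I probes 18 of 20 were at the 95th or over, and the part of brightness in their difference was not tested.

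The direction at 24 h depended on how arrays were scaled. In the series-wide values, which the authors processed and whose columns share 1 distribution, 14 of 20 class I probes were higher at 6 h (median 0.18), 14 of 20 were higher at 24 h (median 0.17) and 14 of 20 were lower at 24 h against 6 h (median -0.15). At an unadjusted p under 0.05 these values gave 2 of 20 class I probes higher at 6 h, 0 at 24 h and 1 of 20 lower between 6 h and 24 h, where the percentile-scaled levels gave 6, 4 and 15. For the last comparison quantile normalization gave 1 of 20, spike-in centring 0 and normexp 7. The share of all tested probes under that p in these settings is not given here. Class I probes are among the brightest of the array, with a median signal percentile of 98.7 and 8 of 20 in the brightest 1%. On the percentile-scaled levels 190 of the 198 tested probes in that brightest 1% were lower at 24 h than before feeding, with a median of -0.65. In the series-wide values their median was -0.01. Columns that share 1 distribution hold their brightest probes as a set near 0, so this median cannot show whether that set differed. The 8 class I probes in that band had a median of -0.58 at 24 h and the 12 dimmer ones -0.24. Spike-in centring turned the 24 h medians to 0.65 for class I and 0.79 for class II, while moving the median of all tested probes to 0.99.

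Within SLA-1, whose 8 named probes were all higher at 6 h, the brightest probe was A_72_P119087. Its levels were 10.39, 11.33 and 10.88 before feeding, 10.70, 11.55 and 11.46 at 6 h, and 10.10, 10.78 and 10.18 at 24 h. The groups overlapped in each comparison, and within each group the array numbered 1 was lowest. The difference at 24 h against 6 h was -0.88 (SE 0.35, unadjusted p = 0.0314, limma adjusted p = 0.192) and that at 6 h against before feeding was 0.37 (SE 0.35). In the series-wide values this probe's difference at 24 h against 6 h was 0. Its log2 values there were 17.10, 17.45 and 17.68 at both times, at the top of the distribution that all columns share. A difference could hardly show there, so this 0 is no check on the other value.

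The SLA-1 probe of the first extracellular domain, A_72_P178486, gave 4.69, 5.0 and 4.87 before feeding, 5.71, 5.12 and 6.36 at 6 h, and 4.98, 4.96 and 4.96 at 24 h. All 3 arrays of 6 h lay above the other 6, with the second close to them and the third far above. Its difference at 6 h was 0.87 (SE 0.32, unadjusted p = 0.021, limma adjusted p = 0.139), and 0.53 in the series-wide values. Leaving out the second 6 h array gave 1.18 with an adjusted p of 0.0343, which is past the threshold, and leaving out the third gave 0.56. Between 6 h and 24 h the difference was -0.76, and it was -1.06 (adjusted p = 0.0485) and -0.45 without these arrays in turn. The share of all tested probes passing without them is not given here.

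A neighbouring probe, A_72_P170061, gave 5.56, 6.09 and 5.95 before feeding, 6.55, 6.32 and 7.48 at 6 h, and 5.85, 5.96 and 6.20 at 24 h. Here too the 6 h arrays all lay above the others, by a difference of 0.92 from before feeding (SE 0.34, unadjusted p = 0.02, limma adjusted p = 0.137), or 0.57 without the third 6 h array. At the cytoplasmic tail A_72_P262732 gave 8.96, 9.28 and 8.96, then 9.32, 9.41 and 10.37, then 8.62, 8.69 and 8.88. The 3 times did not overlap, with 6 h highest and 24 h lowest, and the difference at 24 h against 6 h was -0.97 (SE 0.32, unadjusted p = 0.0116, limma adjusted p = 0.139), or -0.64 without the third 6 h array. In the series-wide values its 24 h arrays overlapped both other groups, with differences of -0.40 from 6 h and 0.21 from before feeding.

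The class I probes placed by description alone included the brightest of all. A_72_P023806, described as SLA-1, gave 11.13, 11.46 and 11.09 before feeding, 11.23, 11.62 and 11.33 at 6 h, and 10.79, 10.83 and 10.14 at 24 h. The first 2 groups overlapped and all 3 arrays of 24 h lay below them, by -0.64 from before feeding (SE 0.29, unadjusted p = 0.047) and -0.81 from 6 h (SE 0.29, unadjusted p = 0.017, limma adjusted p = 0.155). Without the third 24 h array the first of these was -0.42. On the series-wide scale these were 0.04 and -0.03. There its log2 values ran from 17.40 to 17.68, at or near the maximum that all columns share. A difference could hardly show there, so these values are no check on the others.

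A_72_P277969, described only as class I, gave 10.83, 11.37 and 10.88, then 10.80, 11.40 and 10.83, then 10.31, 10.63 and 9.88. Levels before feeding and at 6 h were nearly the same, with a difference of -0.01 (SE 0.31), and the 24 h arrays lay below both groups by -0.75 and -0.74. The overlapping probes A_72_P035616 of SLA-1 and A_72_P322673 behaved alike, at 0.01 and 0.05 at 6 h and at -0.75 and -0.74 at 24 h against before feeding. In the series-wide values the 24 h differences from before feeding were 0.01 for A_72_P277969, -0.20 for A_72_P035616 and 0.11 for A_72_P322673. A_72_P277969 and A_72_P322673 also lay near the top of the distribution that the columns share, where a difference has little room to show. Of the remaining SLA-1 probes A_72_P299534, A_72_P322648 and A_72_P267132 were at 0.76, 0.67 and 0.46 at 6 h, and each lay apart in the lower direction at 24 h against 6 h. The last class I probes, A_72_P227432 and A_72_P180906, were at 0.39 and 0.23 at 6 h with overlapping groups.

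The SLA-3 probe of the immunoglobulin-like domain, A_72_P270324, had levels of 7.61, 8.04 and 7.75 before feeding, 8.21, 8.27 and 9.29 at 6 h, and 7.37, 7.56 and 7.91 at 24 h. The 6 h arrays lay above all others, and the differences were 0.79 at 6 h (SE 0.34) and -0.98 at 24 h against 6 h (SE 0.34, unadjusted p = 0.0156, limma adjusted p = 0.15). Without the third 6 h array they were 0.44 and -0.62. The other 3 SLA-3 probes were nearer 0 at 6 h, at 0.37, 0.10 and -0.14, and were all lower at 24 h than at 6 h, by -0.72, -0.53 and -0.37. In the series-wide values these last differences were -0.13, 0.06 and 0.24.

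The largest class I difference at 6 h among the tested probes was that of SLA-7. Its probe A_72_P237472 gave 7.28, 7.88 and 7.59 before feeding, 8.28, 8.18 and 9.20 at 6 h, and 7.45, 7.68 and 7.78 at 24 h. The 6 h group lay above the other groups, and the difference from before feeding was 0.97 (SE 0.33, unadjusted p = 0.0133, limma adjusted p = 0.118) and 0.81 in the series-wide values. The other SLA-7 probe, A_72_P223217, was well above background on 2 arrays of 6 h and 1 of 24 h only. The tested probe reads the immunoglobulin-like domain, which is alike in class I heavy chains, and how much of its signal came from SLA-7 itself was not tested. The SLA-6 probe was well above background on no array.

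Class I probes differed among themselves at 6 h by their base composition. The following split by base composition was chosen after the values were seen and has no test. The 7 class I probes of 50% GC or over had a median of 0.79 at 6 h (range 0.46 to 0.97), the 6 of 40% to under 50% had 0.30, and the 7 under 40% had 0.04 (range -0.14 to 0.37). At 24 h against before feeding these medians were -0.03, -0.44 and -0.51, and at 24 h against 6 h they were -0.83, -0.80 and -0.61.

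The same order stood in the series-wide values, where the 6 h medians were 0.60 for probes of 50% GC or over and -0.13 for those under 40%. Base composition also moved with the difference over the whole array. All tested probes of 50% GC or over, 371 in number, had a median of 0.44 at 6 h, those of 40% to under 50% had 0.19 and those under 40% had -0.12. Among probes at the 95th signal percentile or over, the 35 of 50% GC or over had medians of 0.62 at 6 h and -0.81 at 24 h against 6 h. The other bands of these bright probes hardly differed from each other at 6 h. The 532 of 40% to under 50% had medians of 0.07 and -0.52, and the 423 under 40% had 0.06 and -0.40. The part of base composition in the class I result was not tested.

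The AATAAA letters stood in 8 of the 20 tested class I probes and 2 of the 12 tested class II probes, against 12.1% of all 43603 probes and 16.2% of the tested ones. On the other strand, as TTTATT, they stood in 0 and 1 of these probes and in 4.63% of all probes. The 8 class I probes with the letters had a median of 0.06 at 6 h and the 12 without had 0.55. The SLA-7 coding probe is the exception among the 8, since its letters lie in coding sequence and its difference was 0.97. The other 7 are the same probes as the class I probes under 40% GC. All of them but SLA-3 A_72_P114481 share a run of at least 20 bases with another of these 7. Base composition and the letters therefore cannot be told apart among these 7, and shared sequence differs only in A_72_P114481. Without the letters, A_72_P322673, A_72_P023806 and A_72_P119087 also share runs, at 40%, 41.7% and 48.3% GC. They were at 0.05, 0.17 and 0.37 at 6 h. The part of each feature was not tested. Over all tested probes the medians with and without the letters were -0.08 and 0.07. Among those at the 95th signal percentile or over they were 0.06 and 0.08.

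Of the 12 class I probes without AATAAA, 8 had their highest level of all 9 arrays on the third 6 h array, against 26% of all tested probes; the other 4 had it on the first or the second 6 h array. Their mean level minus that of the 8 probes with the letters was -0.38, 0.00 and -0.01 before feeding, 0.17, -0.05 and 0.55 at 6 h, and -0.08, 0.01 and 0.23 at 24 h. The groups overlapped in this difference, and only the third 6 h array stood above all the rest. Without that array the 6 h median of the probes of 50% GC or over was 0.48 and that of the probes under 40% was 0.10.

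The probes described as SLA-2 varied more between arrays than between times. A_72_P155696 gave 5.51, 6.80 and 6.45 before feeding, 5.31, 6.71 and 6.95 at 6 h, and 4.69, 6.26 and 6.19 at 24 h. A_72_P195482, which shares 27 bases with it, gave 8.29, 7.27 and 7.51, then 8.03, 7.70 and 7.47, then 7.84, 7.24 and 7.13. In every group the array numbered 1 was lowest for the first probe and highest for the second. Their difference ran from -3.15 to -0.47 over the 9 arrays. By contrast A_72_P035616 of SLA-1 and A_72_P277969, described only as class I, which share 41 bases, differed by between -1.15 and -0.99 on every array.

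SLA-3 A_72_P114481 and SLA-DQB1 A_72_P039061 were likewise highest on the array numbered 1 of each group. Counted over the members, 15 of 20 class I and 3 of 12 class II probes had the same replicate number lowest or highest in all 3 groups, which held for 29.6% of all tested probes. The count in the series-wide values was 11 of 20 and 2 of 12, against 28.4% of all tested probes in those values. With the number added to the limma fit, A_72_P155696 had the smallest p of the members for a difference between numbers (unadjusted p = 0.000684, adjusted p = 0.147), and 28 probes of the array passed (0.142%). This count and this fit were made after the pattern was seen.

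Beta-2-microglobulin, the light chain of class I, had the largest difference among the members. The probe A_72_P379693, whose description gives only a partial match of 19%, had levels of 3.46, 5.20 and 3.48 before feeding, 5.22, 3.44 and 6.00 at 6 h, and 2.55, 3.15 and 2.71 at 24 h. All 3 arrays of 24 h lay below the other 6, while the first 2 groups overlapped widely. The difference at 24 h against 6 h was -2.08 (SE 0.64, unadjusted p = 0.00788, limma adjusted p = 0.127) and -1.69 in the series-wide values. Without the second 6 h array it was -2.80 with an adjusted p of 0.0296, past the threshold, and without the third -1.52. At 24 h against before feeding it was -1.24 (SE 0.64, unadjusted p = 0.0781), or -0.66 without the second array from before feeding. The share of all tested probes passing without the second 6 h array is not given here. Because the match is partial, the probe cannot stand for the gene by itself.

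TAP1, the peptide transporter subunit, had differences above 0 on both probes at both times. Probe A_72_P223837 gave 1.96, 1.69 and 1.93 before feeding, 3.12, 1.94 and 3.43 at 6 h, and 2.69, 2.20 and 2.83 at 24 h. The first and the third 6 h array stood well above, the second lay within the range from before feeding, and all 3 arrays of 24 h lay above that range. The differences were 0.97 at 6 h (SE 0.38, unadjusted p = 0.0289, limma adjusted p = 0.157) and 0.71 at 24 h (SE 0.38, unadjusted p = 0.0908). By the series-wide values the 24 h difference was 0.82.

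The dimmer TAP1 probe A_72_P172206 gave -0.49, -0.89 and -0.74, then 0.33, -1.11 and 1.04, then -0.49, -0.99 and 0.16. Its groups overlapped, with a difference of 0.79 at 6 h (SE 0.50). Without the second 6 h array the differences of A_72_P223837 and A_72_P172206 at 6 h were 1.41 and 1.39, with limma adjusted p-values of 0.0256 and 0.0493. Without the third 6 h array they were 0.67 and 0.32, past no threshold. The share of all tested probes passing without either array is not given here.

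On the percentile-scaled levels class II probes lay nearer their levels from before feeding than class I probes did, by the medians. This did not hold in every setting. Without the third 6 h array the 6 h medians were 0.22 for class II and 0.23 for class I. With quantile normalization the 6 h medians were -0.16 and 0.14, and with spike-in centring the 24 h medians were 0.79 and 0.65. At 6 h 9 of the 12 tested were higher, with a median of 0.16 and a range of -0.11 to 0.35, and none had an unadjusted p under 0.05. At 24 h 8 of 12 were lower than before feeding, with a median of -0.21, 1 lower at an unadjusted p under 0.05 (8.56% of all tested probes) and 5 with groups apart in the lower direction (19% of all tested probes). Between 6 h and 24 h 12 of 12 were lower at the later time, with a median of -0.36, none at an unadjusted p under 0.05 (13.6% of all tested probes) and 5 with groups apart in the lower direction (16.5% of all tested probes). By the series-wide values only 2 of 12 were higher at 6 h (median -0.14), 6 of 12 at 24 h (median -0.01), and 10 of 12 were higher at 24 h than at 6 h (median 0.18).

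The brightest probe of DRA, the alpha chain shared by DR molecules, was A_72_P176171, at 7.77, 7.14 and 7.28 before feeding, 7.16, 7.72 and 7.10 at 6 h, and 7.10, 6.88 and 7.11 at 24 h. The groups overlapped at 6 h, and the difference at 24 h was -0.37 (SE 0.29, unadjusted p = 0.234). The coding probe A_72_P348363 lay at 3.07, 2.80 and 3.15, then 3.25, 3.52 and 3.14, then 3.25, 3.00 and 3.21, a difference of 0.30 at 6 h (SE 0.25) with overlapping groups. The other 2 DRA probes were at 0.17 and 0.18 at 6 h and at 0.04 and 0.10 at 24 h.

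DRB1, the polymorphic beta chain of DR, was lower at 24 h than before feeding on 5 of 5 probes, from -0.68 to -0.18. The brightest, A_72_P187316, gave 8.31, 8.0 and 7.78 before feeding, 7.60, 8.60 and 7.87 at 6 h, and 7.34, 7.24 and 7.49 at 24 h. All 3 arrays of 24 h lay below the other 6, by -0.68 from before feeding (SE 0.31, unadjusted p = 0.0536, limma adjusted p = 0.369). The overlapping probe A_72_P379003 was also at -0.68 (SE 0.30, unadjusted p = 0.0461) and was the only class II probe with an unadjusted p under 0.05 at any time. On the series-wide scale these differences were -0.19 and -0.35.

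The 2 coding DRB1 probes that share 40 bases kept nearly the same distance on all arrays, from 0.10 to 0.27. They were at 0.26 and 0.21 at 6 h and at -0.24 and -0.18 at 24 h. The transmembrane probe A_72_P110316 was at 0.16 and -0.36. The 2 probes nearer the transcript's end were at -0.01 and -0.11 at 6 h, below the coding ones.

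DQB1, the beta chain of DQ, had 1 probe, A_72_P039061, at 7.81, 7.35 and 7.57, then 8.22, 7.99 and 7.58, then 8.0, 7.35 and 7.31. Its groups overlapped, with differences of 0.35 at 6 h (SE 0.30) and -0.02 at 24 h. DMA, a chain of the peptide exchange factor DM, was at 0.03 and 0.11 at 6 h on its 2 probes. The brighter, A_72_P025111, gave 6.71, 6.97 and 6.88, then 6.66, 7.18 and 6.81, then 6.43, 6.53 and 6.67, so that its 24 h arrays lay below those from before feeding by a difference of -0.31 (SE 0.26).

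CD74 was higher at 6 h on both of its probes. A_72_P223292 gave 2.48, 3.39 and 3.35 before feeding, 3.67, 3.53 and 3.71 at 6 h, and 3.05, 3.32 and 2.88 at 24 h. The 6 h arrays lay above the other 6 and close to each other, while the first array from before feeding was far below. The difference at 6 h was 0.56 (SE 0.31, unadjusted p = 0.0935, limma adjusted p = 0.268) and at 24 h against before feeding 0.01. Without the first array from before feeding the 6 h difference was 0.27. The other probe, A_72_P395573, gave 0.69 at 6 h (SE 0.31, unadjusted p = 0.0516), with groups likewise apart, or 0.38 without that array. In the series-wide values the 2 probes were at 0.45 and 0.57.

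The distance between the classes was compared array by array, as the mean level of the 12 class II probes minus that of the 20 class I probes. It was -1.82, -2.30 and -1.98 before feeding, -2.20, -1.99 and -2.68 at 6 h, and -1.81, -2.14 and -1.76 at 24 h. The third 6 h array was the lowest, and the 3 groups overlapped. In the series-wide values the distances were -1.76, -2.06 and -1.91, then -2.19, -1.87 and -2.72, then -1.80, -2.14 and -1.99, again overlapping.

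As medians of the probes' differences, class II minus class I was -0.21 at 6 h and 0.15 at 24 h, both against before feeding, and 0.41 between 6 h and 24 h. The first was -0.01 without the third 6 h array, and the second was -0.18 in the series-wide values. The last kept its sign under all alternatives run, from 0.20 without the third 6 h array to 0.63 without the second 24 h array. Members share sequence, so no test was run over them, and a difference in time course between the classes was not shown beyond the spread of the arrays.

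Other genes of the 2 pathways, from lists of genes chosen with earlier results of these data known, also gave 0 calls by the adjusted p in limma. Of 19 class I pathway genes 8 were tested; at 6 h their median was 0.09, and at 24 h 8 of 8 were lower than before feeding with a median of -0.38. The immunoproteasome subunits PSMB9 and PSMB8 and the ubiquitin gene UBB had unadjusted p-values under 0.05 at 24 h against 6 h, at -0.61 (SE 0.24), -0.64 (SE 0.28) and -0.76 (SE 0.28). PSMB10, also an immunoproteasome subunit, was at 0.04 in that comparison. At 6 h the proteasome activator subunits PSME1, PSME2 and PSME3 were at -0.52, -0.33 and 0.30. PSMB8, PSMB9 and PSMB10 were at 0.56, 0.17 and -0.60 at 6 h. None of these 6 h values had an unadjusted p under 0.05.

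Of 24 class II pathway genes 7 were tested and 7 of 7 were higher at 6 h, with a median of 0.65. The tetraspanins CD9 and CD81 were at 1.15 (SE 0.34, unadjusted p = 0.00651) and 0.71 (SE 0.27, unadjusted p = 0.0261), and the lysosomal membrane protein LAMP1 at 1.35 (SE 0.49, unadjusted p = 0.0203). At 24 h against 6 h CD81 and CREB1, a factor that binds class II promoters, were at -0.79 and -1.07.

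Regulators of the interferon gamma response stood higher at 6 h on 6 of 6 tested genes of 15 listed, with a median of 1.00. IRF1, a transcription factor that activates class I promoters, was at 0.92 (SE 0.25, unadjusted p = 0.00347, limma adjusted p = 0.0832), and the receptor chain IFNGR2 was at 1.25 (SE 0.47, unadjusted p = 0.0235). At 24 h against 6 h 6 of 6 were lower, with a median of -0.78.

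Of 11 costimulators 5 were tested, with a median of 0.08 at 6 h. CD80, a ligand of CD28 on antigen presenting cells, was at -0.93 at 24 h against before feeding (SE 0.36, unadjusted p = 0.0277, limma adjusted p = 0.317).

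Levels of some lists of blood cell markers also differed between the times. The mean level of 4 tested neutrophil markers was between 4.82 and 5.71 before feeding, between 6.89 and 8.90 at 6 h, and between 5.63 and 6.11 at 24 h, so the 6 h arrays lay above the rest and the third was the highest. The 6 tested monocyte markers were between 2.98 and 3.48 before feeding, 4.11 and 5.23 at 6 h, and 3.27 and 4.69 at 24 h. The 8 tested T cell markers were between 1.76 and 2.30, between 0.57 and 1.72, and between 1.92 and 1.95. On the summed scale, the log2 of the added signals, neutrophil markers ran from 7.99 to 9.07, 9.91 to 11.28 and 8.26 to 9.06. The other lists had median differences at 6 h of 0.39 (5 platelet markers), -0.75 (3 NK and cytotoxic) and 0.12 (2 dendritic cell). The 1 tested red cell marker and the 1 tested B cell marker were at -0.30 and -0.13.

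Among these genes the neutrophil granule protein LTF was at 4.50 at 6 h (SE 0.81, limma adjusted p = 0.0597), the monocyte receptor CD14 at 2.56 (SE 0.57), the scavenger receptor CD36 of the same list at -1.20 (SE 0.51, unadjusted p = 0.0396) and the T cell receptor chain CD3D at -1.30 (SE 0.45). In whole blood fewer cells of a type and less RNA per cell cannot be told apart, and the part of cell composition in the class I, class II, TAP1 and CD74 values was not tested.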

How the data were processed

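The 9 scanner files hold spot intensity; per the file headers the deposited processed intensity had background subtracted, with no scaling across arrays. For Feature Extraction the headers give version 10.5.1.1, whereas 9.5.3.1 stands in the submitters' processing notes. The series-wide deposited intensity values are linear, each column having the same median of 11.4 and maximum of 210560; no source used here tells how the authors made them. Genome build and coordinates were not used.

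Spots flagged as outliers and control spots were left out and spots of a probe were averaged, leaving 43596 probes. The group-only limma fit (version 3.58.1, R 4.3.3) had 6 residual and 4.6 prior degrees of freedom, with eBayes and a threshold of 0.05; it was tested on simulated data. All members were accounted for; each gene's brightest tested probe is given by array, and listed genes were named where an unadjusted p was under 0.05, up to 3 per list and comparison by smallest p. Other probes given by array, PSMB10, and PSME1, PSME2, PSME3 and CD36 at 6 h, were chosen after their values were seen. Some listed genes are not reported here. Members and lists were chosen with earlier results of these data known. Alternatives covered scaling, background, filters, series-wide values, probes counted, the replicate block and leaving out each array. Array number limits the precision.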

Additional observations from a re-analysis of the deposited data

How the results depend on the processing

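Of 2109 values of single member probes under the alternatives, 1893 kept their direction and side of the threshold, 201 turned sign while past it in neither setting, 15 came past it and 0 reversed as calls. Quantile normalization gave class I and class II medians of 0.14 and -0.16 at 6 h, 0.11 and -0.06 at 24 h (class II minus class I -0.17), and -0.16 and 0.16 at 24 h against 6 h. The series-wide values gave -0.14 for class II at 6 h, 0.17 and -0.01 at 24 h (class II minus class I -0.18), and -0.15 and 0.18 at 24 h against 6 h. Spike-in centring gave 0.36 for class II at 6 h, 0.65 and 0.79 at 24 h, and 0.03 and 0.45 at 24 h against 6 h. With it 9 members and 9 pathway genes passed at 24 h, where it also moved the median of all tested probes to 0.99. The share of all tested probes passing with it is not given here, so these counts are not a result about the members. Normexp gave -0.04 and 0.07 at 24 h and -0.51 and -0.09 at 24 h against 6 h. Class I by SLA gene names alone, chosen after seeing the data, had 0.64 at 6 h, and class II with 1 probe per gene -0.34 at 24 h. The cause of these shifts was not tested.

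Leaving out each array in turn gave 0 to 4 members and 0 to 3 pathway genes past the threshold at 6 h, 0 to 2 members and 0 to 1 pathway genes at 24 h against 6 h, class II medians of -0.29 to -0.08 at 24 h, and class I medians of -0.90 to -0.61 at 24 h against 6 h. The counts above 0 came without the second 6 h array, and the share of all tested probes passing without it is not given here. With the replicate block 0 members passed in each comparison and the medians were as without it; same-numbered arrays deviated together in some pairs only (correlations of -0.22 to 0.69), so the numbers were not taken as pairs. Signal over background limits 10 members to no test.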
